A study of Homo sapiens with 36 samples.

Results

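Integrins are receptors of the cell surface that bind the extracellular matrix, and the genes described are 10 of their subunits, ITGA1, ITGA2, ITGA3, ITGA5, ITGA6, ITGAV, ITGB1, ITGB4, ITGB5 and ITGB6. They were taken by symbol, and all 10 were found among the 60591 genes of the mRNA count table. They were followed in 18 mRNA libraries, 3 replicates for each of 6 groups, from a pair of lines grown from human colorectal tumours, Caco-2 and HT-29.

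Differentiation for 21 days preceded the treatment of Caco-2, and such a differentiation time is given for Caco-2 only, so the line and its culture state cannot be told apart. Cells of each line were held for 24 h with CoCl2 at 300 µM, with OD, a derivative of oxyquinoline, at 5 µM, or with 0.5 µl of DMSO per ml as the control. Each agent blocks the hydroxylases through which hypoxia-inducible factor (HIF) is degraded, and the study used them to imitate hypoxia and to follow which genes of intestinal epithelium respond. The labels name DMSO for OD and for the control and water for the CoCl2 stock, while the methods of the study give DMSO in the CoCl2 medium as well, so that the part of the solvent in a CoCl2 response was not tested. Both lines are single cancer lines, and nothing in the labels says whether the replicates were separate cultures, although the design text calls them biological. If they were not, the p-values below measure a technical spread.

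An integrin is a pair of an α and a β chain, and the pair decides the ligand. ITGB1 (β1) joins most α chains: ITGA1 and ITGA2 with it make collagen receptors, ITGA3 and ITGA6 make laminin receptors, and ITGA5 makes the main fibronectin receptor. ITGAV pairs with ITGB1, ITGB5 or ITGB6 and binds vitronectin, fibronectin and latent TGF-β, and ITGA6 also pairs with ITGB4 in hemidesmosomes, the anchors of an epithelial cell to its basement membrane.

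Total counts ran from 12925719 to 22332639 per library. Levels are given in CPM, the read count relative to the size of the library after TMM scaling (trimmed mean of M values) within a line. The scaling factor averaged 1.12 in Caco-2 controls, 0.894 after CoCl2 and 1.00 after OD, against 1.19, 0.770 and 1.09 in HT-29. Unscaled library sizes shifted the median log2 fold change over all genes in Caco-2 by -0.32 (CoCl2) and -0.15 (OD), and in HT-29 by -0.63 and -0.14. Changes are therefore relative to the bulk of the genes, and the members that turn direction without the scaling are named where they occur. All 7 markers of intestinal epithelium were above 3 counts in every group. The summed CPM of 6 enterocyte markers was 517 to 610 in Caco-2 controls, 318 to 366 after CoCl2 and 553 to 580 after OD. In HT-29, where 2 of the 6 were at or under 3 counts, it was 33.0 to 35.6, 16.0 to 18.4 and 18.7 to 21.3. The Caco-2 sum was mostly SI (means of 289, 115 and 232 CPM for control, CoCl2 and OD) and FABP1 (222, 132 and 263). APOA4 did not follow the sum, at 13.1, 61.2 and 32.4 CPM. The means of ALPI, ANPEP and FABP2 were lower with CoCl2, as were those of SI and FABP1. The summed markers of fibroblasts (5 genes, 36.1 to 37.6 in Caco-2 controls and 3.23 to 3.68 in HT-29 controls), leukocytes (5 genes, 9.31 to 10.9 and 1.70 to 2.18) and endothelial cells (4 genes, 8.93 to 12.8 and 1.39 to 2.32) were low. In bulk libraries, fewer cells of a kind and less RNA per cell cannot be told apart. Among 9 hypoxia genes that the study names as changed in Caco-2, and which are thus no independent evidence, the call below was met in Caco-2 by 9 under either agent, and in HT-29 by 8 under CoCl2 and 5 under OD, all higher. Of all genes tested, 23.4% (CoCl2) and 11.7% (OD) met it in Caco-2, and HT-29 had 41.3% and 17.1%.

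Results turned on ITGA5, on chromosome 12 (54395261 to 54419266, minus strand), and ITGA2, on chromosome 5 (52989340 to 53094779, plus strand; GENCODE v44, GRCh38). The 250 bases before the first RefSeq start of each gene are shown because both genes rose with both agents in Caco-2. They run 5′ to 3′ on the strand of the gene, from RefSeq on GRCh38.p14, and the capitals mark the core letters that HIF binds, ACGTG or GCGTG, on either strand.

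ITGA5, chr12:54419267-54419516, minus strand: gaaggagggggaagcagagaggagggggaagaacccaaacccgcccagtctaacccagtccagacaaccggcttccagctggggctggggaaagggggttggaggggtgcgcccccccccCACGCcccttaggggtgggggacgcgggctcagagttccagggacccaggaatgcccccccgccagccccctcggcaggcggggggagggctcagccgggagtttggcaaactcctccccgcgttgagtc

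ITGA2, chr5:52989102-52989351, plus strand: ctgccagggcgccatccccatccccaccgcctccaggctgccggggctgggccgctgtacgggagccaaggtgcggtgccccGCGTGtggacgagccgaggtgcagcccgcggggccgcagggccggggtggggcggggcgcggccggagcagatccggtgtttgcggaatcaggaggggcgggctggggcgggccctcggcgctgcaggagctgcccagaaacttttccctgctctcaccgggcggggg

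The ITGA5 window held 1 match, CACGC, which reads GCGTG on the other strand, 130 bases before the start, and the ITGA2 window held 1 match, GCGTG, 168 bases before it. The same search found at least 1 match in 43.2% of 35116 windows of this length. GGAAA, the core bound by NFAT, was present on either strand in both windows and in 55.6% of all. These are matches of letters only. Of the other members with an entry, ITGA6 and ITGB5 had HIF core matches in at least 1 of their windows, and the windows of ITGA1, ITGAV, ITGB1 and ITGB6 held none.

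ITGA5 was low in Caco-2 at rest and rose there with either agent. The 3 Caco-2 controls had 4.42, 5.10 and 3.95 CPM, from 76, 76 and 57 reads. With CoCl2 the libraries had 86.9, 78.6 and 77.7 CPM, and with OD 63.0, 62.9 and 68.4 CPM. The treated groups lay far above the controls with no overlap, and on the TMM scale the CoCl2 libraries all lay above the OD libraries. The log2 fold change with CoCl2 was 4.17, with an SE of 0.11 and an FDR of 7.63e-20, and the OD value was 3.85, with an SE of 0.11 and an FDR of 1.47e-18 (edgeR's quasi-likelihood test, adjusted by Benjamini-Hochberg). Counted from the highest log2 fold change of the 16034 genes tested in Caco-2, these were the 28th and the 7th. On the deposited log2(RPKM + 1) values, a scale that understates changes of low genes, limma gave 2.88 and 2.59.

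In HT-29, ITGA5 stayed at the limit of detection. The controls held 1, 0 and 2 reads, the CoCl2 libraries 1, 0 and 0, and the OD libraries 2, 2 and 4. It did not pass the filter on low counts and was not tested against control in HT-29, so whether it responded there was not detectable at this depth. Over all 3 libraries, Caco-2 had 209 reads and HT-29 had 3 in the controls, a rate 84.9 times as high in Caco-2 with a 95% interval from 28.6 to 415. With OD, 2953 reads stood against 8, a ratio of 425 (215 to 985), and with CoCl2 3561 against 1. Reads had no molecular identifiers, so these exact intervals hold counting error alone. A noncoding gene, GPR84-AS1, lies over ITGA5 on the other strand, and the use of strand in counting was not stated, so reads of both cannot be told apart.

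ITGA2, the α chain of a collagen receptor, rose in Caco-2 and fell in HT-29 with both agents. In Caco-2 the controls had 29.5, 31.6 and 31.3 CPM, the CoCl2 libraries 93.9, 114 and 108, and the OD libraries 68.8, 80.3 and 80.6. In HT-29 the controls had 181, 179 and 174 CPM, the CoCl2 libraries 89.9, 79.4 and 84.1, and the OD libraries 79.8, 70.5 and 67.8. Every treated library was above all controls in Caco-2 and below all controls in HT-29. Caco-2 had a log2 fold change of 1.78 for CoCl2 (SE 0.09, FDR 2.39e-14), and 1.32 was the value of OD (SE 0.09, FDR 2.30e-11). Those of HT-29 were -1.07 (SE 0.06, FDR 1.56e-15) and -1.29 (SE 0.06, FDR 9.80e-17). In CPM scaled within each line, the control mean was 30.8 in Caco-2 against 178 in HT-29, and the CoCl2 means were 106 and 84.5. The treated groups were not tested between the lines.

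**Figure D1:**
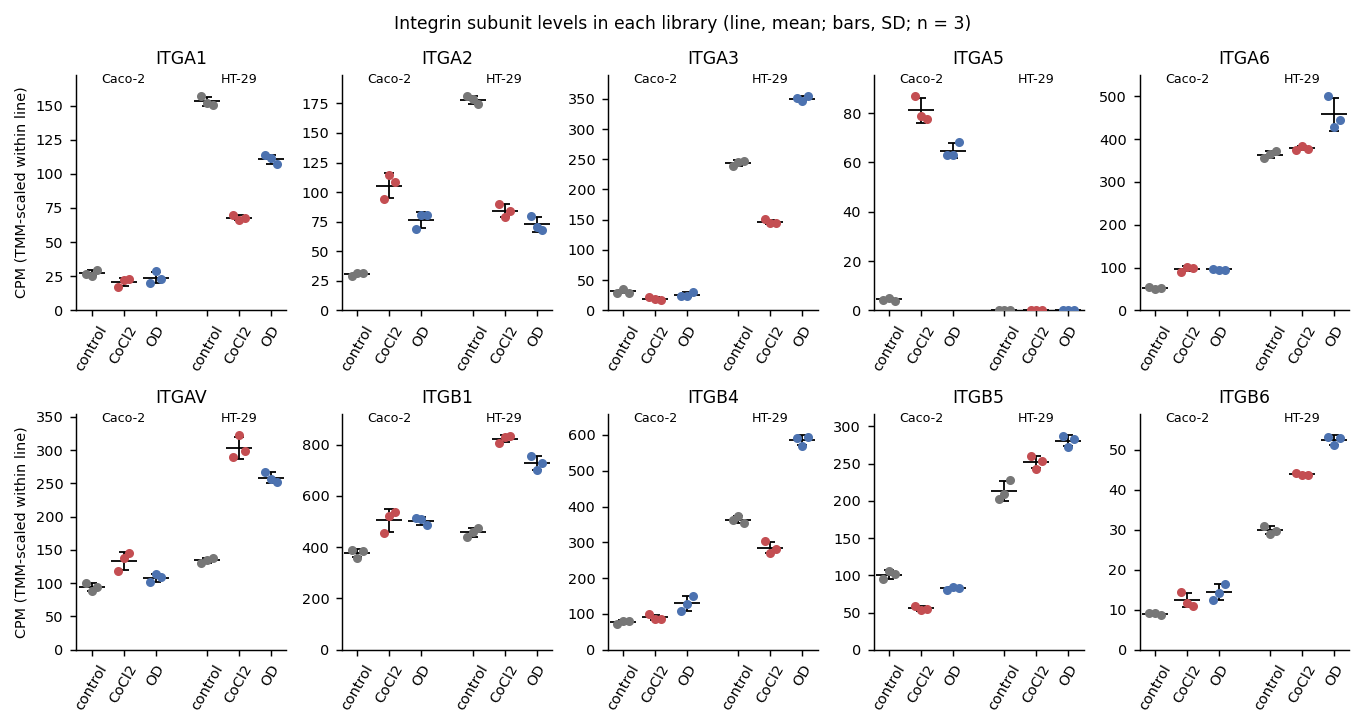
CPM of each of the 10 integrin subunits in every library (points), with the mean (line) and SD (bars) of the 3 replicates, for control, CoCl2 and OD in Caco-2 (left of each panel) and HT-29 (right); each panel has its own axis from 0. ITGA5 is at 3.95 to 5.10 CPM in Caco-2 controls and at 62.9 or more in all treated Caco-2 libraries, and ITGA2 moves up in Caco-2 and down in HT-29.

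A call, at the limits of the study, required an FDR under 0.05 together with an absolute log2 fold change over 1. With CoCl2 in Caco-2, 2 of 10 members were called, ITGA5 and ITGA2, where 23.4% of all genes tested were called. At the FDR alone, 6 members were higher and 3 lower, against 31.6% and 33.1% of all genes. With OD in Caco-2 the same 2 members were called, against 11.7% of all genes, and 7 were higher and 1 lower at the FDR alone, against 25.7% and 24.7%. The median log2 fold change of the members was 0.43 with CoCl2 and 0.54 with OD, beside -0.03 and -0.02 over all genes.

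In HT-29, 9 members were tested. With CoCl2, 3 of 9 were called, ITGAV higher and ITGA1 and ITGA2 lower, against 41.3% of all genes. On unscaled library sizes the 3 called were ITGA1, ITGA2 and ITGA3 (-1.37), all lower, and ITGAV, at 0.54, was not called. At the FDR alone 4 were higher and 4 lower, against 40.7% and 42.2%. With OD, 1 of 9 was called, ITGA2, lower, against 17.1% of all genes, and 7 were higher and 2 lower at the FDR alone, against 34.7% and 34.0%. The medians were 0.06 and 0.52, beside -0.03 and 0.01 over all genes. The shares called were thus near the background in most of these comparisons, and the 4 comparisons share their controls within a line.

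**Figure D2:**
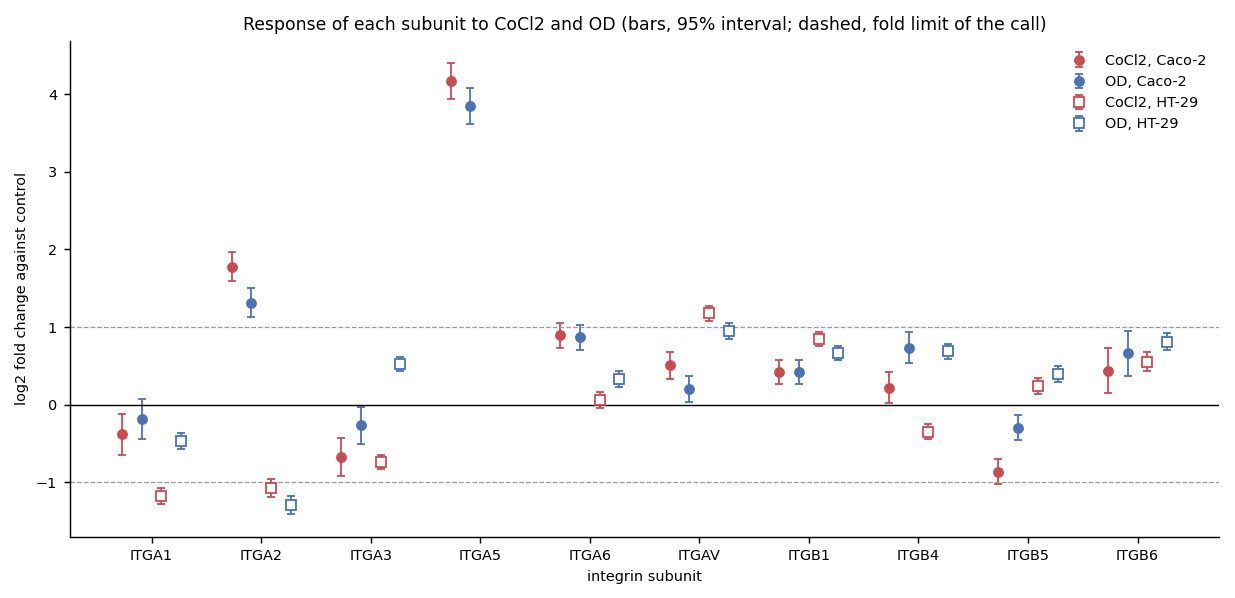
Log2 fold change against control (vertical axis) of each integrin subunit with its 95% interval, for CoCl2 (red) and OD (blue) in Caco-2 (filled circles) and HT-29 (open squares); dashed lines mark the fold limit of a call. ITGA5, tested in Caco-2 only, stands at 4.17 and 3.85, and the ITGA2 values lie on opposite sides of 0 in the lines.

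ITGA1, which with β1 binds collagen, fell with CoCl2 in both lines. The HT-29 libraries had 157, 152 and 150 CPM in controls, 70.2, 66.2 and 67.5 with CoCl2 and 114, 111 and 107 with OD, 3 separate levels with no overlap. The log2 fold changes in HT-29 were -1.17 (SE 0.05, FDR 1.04e-17) and -0.47 (SE 0.05, FDR 1.95e-09). In Caco-2 the controls had 26.5, 25.6 and 30.0 CPM, the CoCl2 libraries 17.2, 22.4 and 23.1 and the OD libraries 20.3, 28.5 and 23.1. The CoCl2 libraries lay below the controls, with a log2 fold change of -0.38 (FDR 0.0113), and the OD libraries overlapped with them at -0.19 (FDR 0.22). Without control replicate 3 or CoCl2 replicate 1 the FDR in Caco-2 with CoCl2 was 0.0666 or 0.0728. ITGA1 shares its start and strand with PELO, which held 351 to 4384 counts per library, and how the counting divided reads between them was not stated.

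ITGA3, the α chain of a laminin receptor, separated the agents in HT-29. The HT-29 controls had 238, 246 and 248 CPM, the CoCl2 libraries 150, 144 and 145, and the OD libraries 351, 346 and 354. It thus fell with CoCl2 (log2 fold change -0.74, SE 0.05, FDR 2.49e-14) and rose with OD (0.52, SE 0.04, FDR 4.33e-11), with no overlap among the 3 groups. In Caco-2 it had 29.6 to 35.1 CPM in controls, 17.8 to 22.4 with CoCl2 and 23.5 to 30.5 with OD. The fall with CoCl2 was -0.68 (FDR 2.37e-05), and the OD value of -0.27 did not pass (FDR 0.0568).

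ITGA6, the α chain of laminin receptors and of hemidesmosomes, rose in Caco-2 by a similar amount with both agents. Controls had 54.95, 50.2 and 52.0 CPM, the CoCl2 libraries 90.7, 102 and 99.8, and the OD libraries 97.9, 93.6 and 95.5. The treated groups lay above the controls and overlapped with each other, at log2 fold changes of 0.90 (FDR 4.24e-10) and 0.87 (FDR 2.05e-09). In HT-29 it had 355 to 371 CPM in controls, 374 to 384 with CoCl2 and 428 to 500 with OD. It rose with OD (0.33, FDR 1.62e-06), while the CoCl2 value of 0.06 (95% interval -0.05 to 0.16, FDR 0.287) became -0.58 on unscaled library sizes.

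ITGAV, the α chain of vitronectin receptors and of receptors that activate TGF-β, rose with both agents in HT-29. In Caco-2 it rose by less with CoCl2, and the OD value there was not stable. The HT-29 controls had 130, 135 and 138 CPM, the CoCl2 libraries 289, 322 and 298, and the OD libraries 268, 256 and 252. Log2 fold changes in HT-29 were 1.18 (SE 0.05, FDR 7.58e-18) and 0.94 (SE 0.05, FDR 3.13e-15). In Caco-2, CPM were 99.8, 87.9 and 94.8 in controls, 118, 138 and 145 with CoCl2 and 102, 114 and 109 with OD. The Caco-2 log2 fold changes were 0.51 (FDR 9.61e-06) and 0.20 (FDR 0.0466). The OD value in Caco-2 sat at the threshold, and leaving out any 1 of 4 libraries (control replicates 2 and 3, OD replicates 2 and 3) moved its FDR to 0.0725 to 0.196. That value also did not pass with a replicate block in edgeR (FDR 0.0583) or in the limma fits (FDR 0.123 to 0.125). On unscaled library sizes neither Caco-2 value passed (0.19, FDR 0.0585, and 0.049, FDR 0.656).

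Among the β chains, ITGB1, the common partner, rose in all 4 comparisons. In Caco-2 it had 387, 358 and 383 CPM in controls, 455, 520 and 538 with CoCl2 and 513, 511 and 484 with OD, and in HT-29 441, 459 and 473, then 807, 829 and 832, then 754, 699 and 729. Treated libraries were above all controls of their line. For Caco-2 both log2 fold changes were 0.42 (FDR 2.74e-05 with CoCl2, 5.55e-05 with OD), and those of HT-29 were 0.85 (FDR 7.91e-16) and 0.67 (FDR 3.62e-13). On unscaled library sizes the Caco-2 value with CoCl2 was 0.10 and did not pass (FDR 0.199).

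ITGB4, the β chain of hemidesmosomes, rose with OD in both lines, by 0.73 in Caco-2 (FDR 9.67e-07) and 0.69 in HT-29 (FDR 6.14e-13) on the log2 scale. With CoCl2 it fell in HT-29, at -0.35 (FDR 1.69e-07), and in Caco-2 the value was 0.22 (FDR 0.0527), or -0.10 on unscaled library sizes. The HT-29 controls had 362, 375 and 354 CPM, the CoCl2 libraries 303, 271 and 282, and the OD libraries 592, 570 and 595, with no overlap. In Caco-2 the values were 71.7, 79.95 and 81.7, then 98.6, 86.8 and 86.4, then 108, 129 and 151. GALK1, with 22 to 631 counts per library, overlaps ITGB4 on the opposite strand.

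ITGB5, a β chain of ITGAV that binds vitronectin, fell in Caco-2. Controls had 95.3, 106 and 101 CPM, the CoCl2 libraries 59.2, 53.0 and 54.7, and the OD libraries 80.4, 83.7 and 82.9, at log2 fold changes of -0.86 (FDR 8.83e-10) and -0.29 (FDR 0.00247). In HT-29, with 202 to 228 CPM in controls, 243 to 260 with CoCl2 and 273 to 287 with OD, it rose with OD (0.39, FDR 7.13e-08) and with CoCl2 (0.24, FDR 8.31e-05), the latter turning to -0.39 on unscaled library sizes.

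ITGB6, the epithelial β chain that with ITGAV activates latent TGF-β, rose in all 4 comparisons on the TMM scale, though not with CoCl2 on unscaled library sizes. In Caco-2 it had 9.26, 9.12 and 8.79 CPM in controls, 14.3, 11.7 and 11.03 with CoCl2 and 12.5, 14.1 and 16.4 with OD, at log2 fold changes of 0.44 (FDR 0.00921) and 0.66 (FDR 3.37e-04). Without CoCl2 replicate 1 the first value was 0.33 (FDR 0.0506). In HT-29, 29.0 to 31.0 CPM in controls stood below 43.5 to 44.3 with CoCl2 and 51.1 to 53.2 with OD. The log2 fold changes were 0.56 (FDR 1.42e-09), which became -0.078 on unscaled library sizes, and 0.81 (FDR 5.24e-13).

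Levels of different subunits were compared per length, in RPKM from the deposited log2 values. The gene lengths implied by these values ran from 5.80 kb (ITGB6) to 18.6 kb (ITGA1), with 9.83 kb for ITGA3 and 7.40 kb for ITGA5. They were not checked against the transcripts expressed here, and the order, shares and sums of subunits depend on them. ITGB1 was the highest member in every group, with 63.8 ± 2.66 (SD, n = 3), 83.3 ± 7.0 and 83.2 ± 2.49 RPKM in Caco-2 for control, CoCl2 and OD, and 78.5 ± 2.80, 132 ± 2.20 and 123 ± 4.49 in HT-29. Recomputed on unscaled library sizes, ITGB1 in HT-29 had 90.5 ± 3.04, 105 ± 1.45 and 131 ± 3.22 RPKM. In Caco-2 controls it was followed by ITGB5 (15.8), ITGB4 and ITGAV (both 11.7, with overlapping ranges), ITGA6 (7.97), ITGA2 (3.98), ITGA3 (3.27), ITGB6 and ITGA1 (1.60 and 1.505, overlapping), and ITGA5 was the last (0.620 ± 0.0806). With CoCl2 ITGA5 stood 6th at 10.9 ± 0.721 RPKM, apart from ITGA2 above (13.3) and ITGB5 below (8.49), while ITGAV (16.2), ITGA6 (14.4), ITGB4 (13.3) and ITGA2 overlapped in turn. With OD it stood 7th at 8.73 ± 0.438, overlapping with ITGA2 (9.66). The order in HT-29 controls was ITGB1, ITGA6 and ITGB4 (55.9 and 55.5, overlapping), ITGB5 (33.8), ITGA3 (25.7), ITGA2 (23.2), ITGAV (16.8), ITGA1 (8.51) and ITGB6 (5.32), and ITGA5 is listed at 0 in all HT-29 libraries. With CoCl2 ITGAV (35.7) moved next to ITGB5 (37.4), with which it overlapped, above ITGA3 (14.4), and with OD ITGB4 (87.8) stood above ITGA6 (69.2) and ITGA2 (9.34) overlapped with ITGB6 (9.19).

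As a share of the 6 α chains summed per length, ITGA5 went from 2.14% ± 0.308 in Caco-2 controls to 18.9% ± 2.22 with CoCl2 and 17.6% ± 0.639 with OD, and ITGA2 from 13.7% ± 0.808 to 22.9% ± 1.17 and 19.4% ± 1.02. ITGAV gave 40.2% ± 1.65 of the sum in Caco-2 controls, the largest share there, and 27.9% ± 1.59 and 26.4% ± 0.864 with the agents, although its own level did not fall. In HT-29 ITGAV took 12.9% ± 0.224, 30.1% ± 1.25 and 20.9% ± 0.499, ITGA2 17.9% ± 0.565, 8.73% ± 0.659 and 6.11% ± 0.264, and ITGA6 42.9% to 46.0% in every group. The shares of one sum are bound to each other, since a rise of one lowers the rest, and their ranges did not overlap between control and either agent for any α chain listed above 0, except ITGA6 with OD in Caco-2.

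The summed α chains measured 29.0 ± 0.658, 57.9 ± 2.82 and 49.6 ± 1.94 RPKM for control, CoCl2 and OD in Caco-2, while HT-29 had 130 ± 1.72, 119 ± 1.40 and 153 ± 7.51. These sums carry the scaling of the deposited values and were not recomputed on unscaled library sizes. Set against ITGB1, the α sum was 0.455 ± 0.0112, 0.696 ± 0.0284 and 0.597 ± 0.0383 in Caco-2, so that it gained on β1 there. In HT-29 the ratio was 1.66 ± 0.0384 in controls, 0.896 ± 0.0149 with CoCl2 and 1.24 ± 0.0274 with OD, lower in both treated groups. The hemidesmosome pair, as ITGA6 per ITGB4, had ratios of 0.682 ± 0.0783, 1.09 ± 0.142 and 0.760 ± 0.139 in Caco-2. Those of HT-29 were 1.01 ± 0.0419, 1.34 ± 0.0930 and 0.787 ± 0.0562. These ratios within a library do not depend on its scaling, and they describe mRNA, not receptors on the surface.

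**Figure D3:**
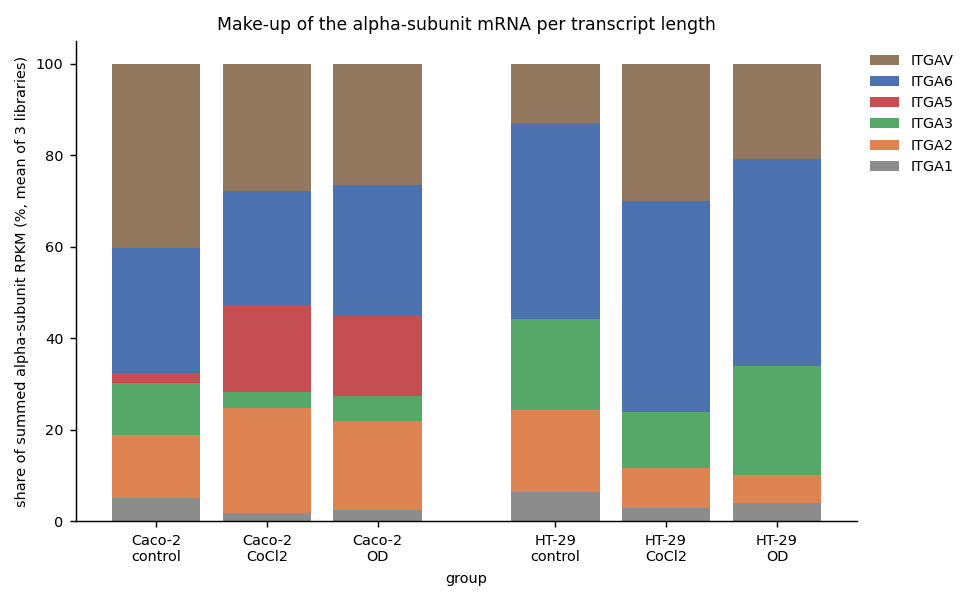
Mean share (%, vertical axis) of each α subunit in the summed RPKM of the 6 α subunits, in stacked bars for the 6 groups of 3 libraries. ITGA5 fills 2.14% of the bar in Caco-2 controls, 18.9% with CoCl2 and 17.6% with OD, and no part of the HT-29 bars, where ITGAV widens from 12.9% to 30.1% with CoCl2.

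CoCl2 and OD, given at different doses, were also set against each other. In Caco-2, 0 of 10 members were called by edgeR's quasi-likelihood test (11.7% of all genes), and 0 by DESeq2, while 6 had an unadjusted p under 0.05. At the FDR alone, 3 were higher with CoCl2, ITGA2 (0.46), ITGA5 (0.32) and ITGAV (0.31), and 3 lower, ITGB5 (-0.57), ITGB4 (-0.52) and ITGA3 (-0.41), against 24.4% and 25.2% of all genes. On unscaled library sizes ITGA5 (0.16, FDR 0.137) and ITGAV (0.14, FDR 0.183) did not pass. Differences for ITGA6 and ITGB1 were near 0, with 95% intervals of the log2 fold change from -0.13 to 0.18 and from -0.15 to 0.16. ITGA1 and ITGB6 missed the FDR as well, at -0.19 (-0.46 to 0.07) and -0.22 (-0.50 to 0.05).

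In HT-29, 2 of 9 members were called, both lower with CoCl2 than with OD, ITGA3 (-1.26, FDR 3.99e-19) and ITGB4 (-1.04, FDR 7.59e-17), against 29.9% of all genes. Both are chains of laminin receptors. Without CoCl2 replicate 2, ITGA3 alone was called. At the FDR alone 6 were lower with CoCl2 and 3 higher, against 40.6% and 37.1% of all genes, and the 3 that were higher, ITGAV (0.23), ITGA2 (0.22) and ITGB1 (0.18), turned to -0.27, -0.28 and -0.32 on unscaled library sizes.

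The lines differed at rest. In controls, 8 of 10 members were called between HT-29 and Caco-2, against 45.8% of all genes, with 9 members higher in HT-29 and 1 lower at the FDR alone, against 39.5% and 39.6%. ITGA3 was higher in HT-29 by 3.05 on the log2 scale (SE 0.08, FDR 8.79e-27), ITGA6 by 2.88, ITGA2 by 2.62, ITGA1 by 2.57 and ITGB4 by 2.32, and ITGB6 by 1.81 and ITGB5 by 1.17. ITGAV (0.60) and ITGB1 (0.37) were higher at the FDR alone. ITGA5 was the member that was lower in HT-29, with 0 to 2 reads per HT-29 control library. It passed the filter in the fit of both lines through its Caco-2 reads.

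Whether the response to an agent differed between the lines was tested as an interaction over all 18 libraries, as the log2 fold change in HT-29 minus that in Caco-2. For CoCl2, 2 of 10 members were called, ITGA2 and ITGA5, against 21.6% of all genes, and 3 were higher and 5 lower at the FDR alone, against 21.1% and 28.6%. ITGA5 is in these counts but shows no difference in response, for the reason given below. For OD, 1 of 10 was called, ITGA2, against 15.2% of all genes, with 4 higher and 2 lower at the FDR alone, against 20.9% and 22.0%. ITGA2 had the largest difference among the 9 members tested against control in each line, at -2.96 in the CoCl2 test (SE 0.11, FDR 4.17e-21) and -2.62 in that of OD (SE 0.11, FDR 3.45e-19). ITGB5 went the other way, at 0.99 (SE 0.09, FDR 4.83e-11) and 0.67 (SE 0.09, FDR 1.86e-07). ITGB6 showed no detectable difference for either agent, at 0.02 (-0.27 to 0.30) and 0.14 (-0.14 to 0.41), the first of which turned to -0.19 on unscaled library sizes. ITGA5 passed the filter of this fit through its Caco-2 reads and rested on 0 to 4 reads per HT-29 library. Its fitted difference is thus no measure of size, and its call reflects the Caco-2 rise beside an HT-29 response that was not detectable. The call of ITGA5 is therefore not read as a line difference in response. The CoCl2 call of ITGA5 was lost without HT-29 control replicate 3 (FDR 0.107). The CoCl2 count was 4 without Caco-2 CoCl2 replicate 1, and the OD count was 2, with ITGA5 added, without HT-29 control replicate 2.

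**Figure D4:**
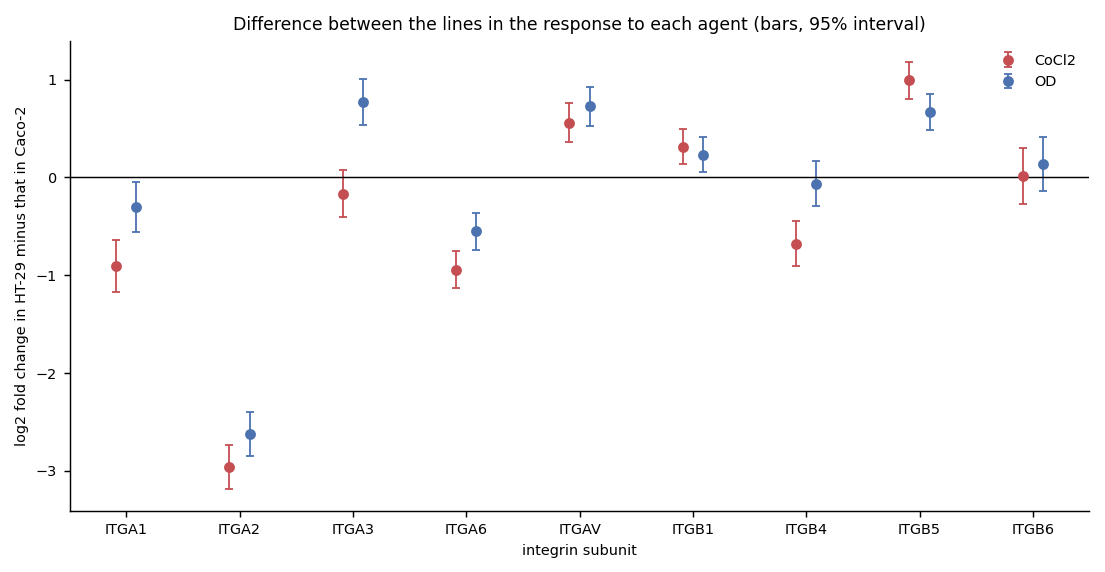
Log2 fold change in HT-29 minus that in Caco-2 (vertical axis) with 95% intervals for CoCl2 (red) and OD (blue), for the 9 members that passed the filter on low counts in each line. ITGA2 lies at -2.96 and -2.62, ITGB5 at 0.99 and 0.67, and the intervals of ITGB6 span 0 for both agents.

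Genes whose pattern was most like ITGA5 over the 9 Caco-2 libraries were HK2 (hexokinase 2), CKB (brain creatine kinase), ALDOC (aldolase C), NDRG1 and EPHA2 (an ephrin receptor), out of 11731 genes compared. Pearson's r of log2 CPM ran from 0.997 to 0.998, and since the 9 points form 1 low and 2 high groups, r mostly reflects the step from control to treatment. In HT-29 these genes did not share the near absence of ITGA5: for control, CoCl2 and OD, HK2 had 37.3 ± 1.75, 857 ± 16.9 and 80.2 ± 7.12 CPM, and EPHA2 262 ± 19.3, 195 ± 18.2 and 104 ± 5.37. Among the members, r with ITGA5 was 0.985 for ITGA6, 0.973 for ITGA2 and 0.925 for ITGB1, and was negative for ITGB5 (-0.79), ITGA3 (-0.73) and ITGA1 (-0.64).

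Of 20 genes for matrix ligands of these receptors, 15 were tested in HT-29, and 6 were called higher and 1 lower with CoCl2, and 9 with OD, all of them higher, with medians of 0.76 and 1.30 beside -0.03 and 0.01 over all genes, of which 41.3% and 17.1% were called. LAMA3 and LAMB3, laminin chains of epithelial basement membranes, rose with both agents in HT-29, LAMA3 by 2.47 with CoCl2 and 1.95 with OD and LAMB3 by 2.23 and 1.39 on the log2 scale, all with FDR of 1.59e-16 or less. LAMA3 stood at 47.1 ± 2.61 CPM in HT-29 controls, 262 ± 6.69 after CoCl2 and 183 ± 12.6 after OD. Other laminin chains varied in HT-29: LAMC1 rose (1.67 with CoCl2, 1.34 with OD), and LAMB1 rose with CoCl2 (0.46) and fell with OD (-0.14, FDR 0.0099). LAMB2 did not pass (-0.09 and 0.03). In Caco-2, LAMA3 fell with CoCl2 (-0.32, FDR 0.00213) and rose with OD (0.60, FDR 1.58e-06), and LAMB3 rose with both (0.93 and 0.56). These laminin chains were named after their values were seen. COL1A1, a collagen chain, rose with OD in HT-29 from 1.41 ± 0.118 to 5.63 ± 0.613 CPM (2.01, FDR 5.87e-11).

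In HT-29, COL4A1 (1 chain of type IV collagen) and SPP1 (osteopontin, a ligand of ITGAV) were at 0.0365 ± 0.0631 and 0.114 ± 0.0498 CPM in controls and at 13.7 ± 0.531 and 12.7 ± 0.231 with CoCl2. COL4A2, another chain of type IV collagen, fell with CoCl2 in HT-29 (-0.67, FDR 5.54e-06). It did not pass in Caco-2 with CoCl2 (0.10, FDR 0.728) or OD (-0.14, FDR 0.645), and was named after its values were seen. In Caco-2, 18 ligands were tested, and 1 was called higher and 5 lower with CoCl2, and 1 with OD, which was lower, against 23.4% and 11.7% of all genes. With CoCl2, FGA, the fibrinogen α chain, fell there from 256 ± 18.2 to 85.7 ± 3.33 CPM (-1.58, FDR 5.60e-14), and COL4A1 fell with both agents (-2.23 and -1.003). FN1, fibronectin, the ligand of ITGA5, stood at 4480 ± 309 CPM in Caco-2 controls, 5025 ± 365 with CoCl2 (0.17, FDR 0.0656) and 3591 ± 129 with OD (-0.32, FDR 0.00147). The HT-29 libraries had 4.70 to 9.42, 1.94 to 21.9 and 11.1 to 20.2 CPM, and FN1 was named after its values were seen.

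Of 23 genes for the cytoplasmic proteins that activate integrins or link them to actin, 1 rose and 1 fell with CoCl2 and 1 rose with OD by the call in Caco-2, below the 23.4% and 11.7% of all genes. In HT-29, with 22 tested, 3 rose and 6 fell with CoCl2, and the 2 called with OD fell, against 41.3% and 17.1% of all genes, so that the CoCl2 share was that of the background. FERMT1, the kindlin of epithelia, which activates integrins, fell with CoCl2 in HT-29 from 207 ± 2.92 to 56.5 ± 1.67 CPM (-1.87, FDR 3.88e-22), and LIMS2 fell from 50.9 ± 1.60 to 17.1 ± 1.25 (-1.57, FDR 8.59e-18). Its close relative LIMS1, another adaptor of the integrin-linked kinase, rose from 22.6 ± 1.46 to 68.0 ± 9.79 (1.60, FDR 4.83e-16). TNS1, a tensin that ties integrins to actin, was called higher with CoCl2 in HT-29 (1.59, FDR 7.03e-19) and with OD in Caco-2 (1.05, FDR 1.22e-10). With CoCl2 in Caco-2 it rose just under the fold limit (0.97, FDR 1.60e-10), and with OD in HT-29 it fell (-0.24, FDR 0.00196). The list had medians of 0.09 and 0.22 for the agents in Caco-2, and -0.03 and -0.16 for HT-29.

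Among 4 inhibitors of integrin activation, FLNA, the filamin that competes with talin for β tails, was called with CoCl2 in both lines, rising from 270 ± 9.15 to 729 ± 62.8 CPM in Caco-2 (1.43, FDR 2.58e-12) and from 407 ± 12.1 to 1185 ± 37.6 in HT-29 (1.54, FDR 1.64e-21), where 23.4% and 41.3% of all genes were called. With OD, 0 of the 4 were called by edgeR in either line, and 1 in Caco-2 and 3 in HT-29 had an unadjusted p under 0.05, against 11.7% and 17.1% of all genes called. Of 7 hemidesmosome and tetraspanin partners of ITGB4 and ITGA6, 1 was called in each of 3 comparisons, PLEC (plectin) with OD in Caco-2 (1.11, FDR 5.49e-10), DST (dystonin) with CoCl2 in HT-29 (1.02, FDR 7.18e-17) and COL17A1 with OD in HT-29 (1.18, FDR 1.44e-17), against 11.7%, 41.3% and 17.1% of all genes. In Caco-2 with CoCl2, 0 of the 7 were called by edgeR and 5 had an unadjusted p under 0.05, with a median of 0.63, where 23.4% of all genes were called. PLEC (0.97, FDR 1.91e-09), DST (0.76, FDR 8.05e-06), CD9 (0.71, FDR 2.07e-07) and CD81 (0.63, FDR 8.07e-07) passed the FDR and missed the fold limit only. COL17A1, CD151 and CD82 did not pass the FDR.

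The other 16 integrin subunits were mostly at low levels, and 7 of them were tested in each line. In Caco-2, 1 rose with CoCl2 and 1 fell with OD by the call, and in HT-29 1 rose and 2 fell with CoCl2 and 3 rose with OD, against 23.4%, 11.7%, 41.3% and 17.1% of all genes in the same order. ITGB8, a further β chain of ITGAV, fell with CoCl2 in HT-29 from 28.8 ± 4.01 to 10.7 ± 2.11 CPM (-1.44, FDR 2.66e-12). ITGAM and ITGB7, chains known from leukocytes, rose with OD in HT-29, from 2.77 ± 0.379 to 19.7 ± 1.07 CPM (2.84, FDR 1.55e-17) and from 1.29 ± 0.282 to 4.34 ± 0.0294 (1.78, FDR 6.01e-09). The 5 leukocyte markers summed to 1.70 to 2.18 CPM in HT-29 controls and 2.28 to 2.98 with OD, with 3 of the 5 at or under 3 counts in both groups, and their part in these rises was not tested.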

How the data were processed

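For the 18 mRNA libraries, a table of raw counts and a table of log2 values were deposited by the authors, both by gene. The submitters' processing notes name FastQC 0.11.9, cutadapt 2.10, STAR 2.7.5b, Bowtie 1.1.1 and edgeR 3.30.3, and build GRCh38.p13. The counting tool and its use of strand are not given in the sources used here. The log2 table deposited by the authors was checked against the counts and holds log2 of RPKM plus 1, scaled within each line, with a gene dropped in a line standing at 0 there. The miRNA tables were not used here.

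The test on counts was that of edgeR 4.0.16 (R 4.3.3). Each line was fitted over its 9 libraries, and both lines over 18 for the line differences, with TMM scaling, filterByExpr, 1 coefficient per group and the two-sided quasi-likelihood F test. The FDR was adjusted by Benjamini-Hochberg over all genes tested. A call needed an FDR under 0.05 and an absolute log2 fold change over 1. Replicates differed beyond sampling noise in every pair. Replicate 1 stood apart in the treated Caco-2 groups, by the chi-square per degree of freedom of a pair of libraries. With CoCl2 its pairs had 9.29 and 11.6, against 3.57 for replicates 2 and 3. With OD they had 10.2 and 13.5, against 3.61. In the HT-29 controls replicate 3 stood apart as well, with 6.61 and 5.43, against 2.04 for replicates 1 and 2. Scripts were tested on simulated data. Alternatives were other scalings, no filter, DESeq2 1.42.0, limma 3.58.1 on the log2 values, a replicate block, the FDR alone and each library left out. All members were named. From each gene list, up to 2 called genes with the highest and 2 with the lowest log2 fold change in a comparison with an agent and a mean count of at least 50 were named, and exceptions are marked. One gene that the rule chose is not reported here. Genes like ITGA5 were the 5 with the highest Pearson's r of log2 CPM (prior count 2) and a mean count of at least 50. The members and lists were chosen with earlier results of these data known. Depth limits members with few reads, and the exact intervals of read ratios cover counting error only.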

Additional observations from a re-analysis of the deposited data

Results flagged for a closer look

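The members below passed the interaction test of edgeR over 18 libraries (FDR under 0.05). Except for ITGA5, their response to an agent thus differed between the lines. Values are the log2 fold change in HT-29 minus that in Caco-2. For CoCl2, 5 members had a lower value in HT-29: ITGA2 at -2.96, ITGA6 at -0.94, ITGA1 at -0.90, ITGB4 at -0.68 and ITGA5 at -5.07 (FDR 0.00287). The fitted ITGA5 value rests on 0 to 2 reads per HT-29 library and is no bound. ITGA5 passed the filter through its Caco-2 reads, and whether it responded in HT-29 was not detectable. The value was higher in HT-29 for ITGB5 at 0.99, ITGAV at 0.56 and ITGB1 at 0.31, the last of which did not pass on unscaled library sizes (0.11, FDR 0.276).

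For OD, ITGA2 at -2.62 and ITGA6 at -0.55 had the lower value in HT-29, and ITGA3 at 0.77, ITGAV at 0.73, ITGB5 at 0.67 and ITGB1 at 0.23 the higher. The ITGB1 value (FDR 0.0329) was lost without any 1 of 7 libraries, with an FDR from 0.0615 to 0.103.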

How the results depend on the processing

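Beside the 2, 2, 3 and 1 members called for the agents (CoCl2, then OD) in Caco-2, then in HT-29, the FDR alone gave 9, 8, 8 and 9. For CoCl2 against OD it gave 6 (Caco-2) and 9 (HT-29), and for the line differences 8 (CoCl2) and 6 (OD). On unscaled library sizes the CoCl2 line difference had 4 calls. Leaving out 1 library gave 1 to 2 calls for CoCl2 against OD in HT-29, 2 to 4 for the CoCl2 line difference and 1 to 2 for the OD line difference. The other counts stayed within 1.5 times, although on unscaled library sizes ITGA3 replaced ITGAV among the 3 with CoCl2 in HT-29, ITGB5 was added with CoCl2 in Caco-2 and ITGA1 between agents in HT-29, and the replicate block gave 2, 2, 3 and 1 against control. Replicate numbers did not pair libraries: 2 of 18 same-numbered pairs correlated above 0.1 (-0.18 to 0.19).

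Of the fold changes under all alternatives, 1170 kept direction and side, 29 turned direction, 17 newly passed and 32 no longer passed. Unscaled library sizes turned ITGB4 with CoCl2 in Caco-2 (-0.10), ITGA6 (-0.58), ITGB5 (-0.39) and ITGB6 (-0.078) with CoCl2 in HT-29, ITGA6 (-0.14) and ITGB1 (-0.16) between agents in Caco-2, ITGA2 (-0.28), ITGAV (-0.27) and ITGB1 (-0.32) between agents in HT-29, and ITGB6 in the CoCl2 line difference (-0.19). The limma fits turned ITGA6 with CoCl2 in HT-29 (-0.033 to -0.034) and ITGB1 between agents in Caco-2 (-0.0016 to -0.0017). Without the filter, ITGA6 (-0.0014) and ITGB1 (-0.024) between agents in Caco-2 and ITGB6 in the CoCl2 line difference (-0.0043) turned. Leaving out 1 library, ITGA6 and ITGB1 between agents in Caco-2 ranged from -0.0030 to 0.075 and from -0.045 to 0.073, ITGB6 in the CoCl2 line difference from -0.072 to 0.12, and ITGB4 in the OD line difference from -0.19 to 0.056. The cause was not tested. Depth limits ITGA5 in HT-29, with 0 to 4 reads per library. Of 57 mean RPKM levels of a member in a group, 40 moved by at least their SD when recomputed on unscaled library sizes.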
